A study of Mus musculus with 9 samples.

Results

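The 10 genes described here carry the R-spondin and canonical WNT signal: the ligands Rspo1 and Wnt4, the R-spondin receptors Lgr4 and Lgr5, the ubiquitin ligases Znrf3 and Rnf43, the transcription factor Lef1, and the feedback genes Axin2, Nkd1 and Nkd2. They were taken by name, with earlier results of these data known, and all 10 were found among the 15300 genes measured. Expression was measured by RNA sequencing in mouse gonads of strain C57BL/6 at stage E13.5, in days after conception, freed from the adjoining mesonephros, in 9 samples that formed 3 groups of 3. XX-WT was ovary of genotype XX Sox9flox/flox and XY-WT was testis of genotype XY Sox9flox/flox, so both control groups carried the floxed Sox9 alleles. XY-KO was testis of genotype XY AMH-Cre; Sox9flox/flox, in which Cre recombinase is driven by the promoter of AMH, a hormone gene of Sertoli cells. Deletion is thus directed to Sertoli cells, the supporting cells of the testis, and not to the other cells of the gonad. Nothing in the labels says whether a sample was a single fetus or a pool, so p-values measure only the spread between these samples, which may be technical.

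In canonical WNT signalling a WNT ligand binds a Frizzled receptor with LRP5 or LRP6, β-catenin escapes degradation, and it activates target genes together with TCF and LEF factors. R-spondins, bound by LGR receptors, clear the ubiquitin ligases ZNRF3 and RNF43 from the cell surface, which otherwise remove Frizzled receptors and so damp the signal. In the XX gonad RSPO1 and WNT4 act on the supporting cell lineage in favour of ovary development, while in the XY gonad SOX9 drives Sertoli cell differentiation, and the WNT signal opposes the testis pathway.

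The values are those of 3 comparisons between groups made by the authors with limma. It fits a linear model to each gene and shares information on the variance across genes. Each comparison gives for each gene a log2 fold change, its moderated t and a Benjamini-Hochberg adjusted p over the 15300 genes. A gene was called when the adjusted p was under 0.05. Standard errors (SE) and 95% intervals were computed from the deposited fold change and t. Group levels in CPM (reads of a gene set against the same total in every library) were derived from the deposited mean and fold changes, and have no error of their own. No values of single samples were used, so sequencing depth is unknown and the spread within a group is seen only through the SE.

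The labels held for the targeted gene: Sox9 stood at -2.76 in XY-KO over XY-WT in the authors' deposited table (limma adjusted p 8.93e-07). Its RNA was reduced and not absent, with derived levels of 89.4 CPM in XY-WT, 13.2 CPM in XY-KO and 4.02 CPM in XX-WT. All 5 Sertoli cell markers (Sox9 itself, Amh, Dhh, Cst9 and Aard) were lower in XY-KO than in XY-WT and higher in XY-KO than in XX-WT, and the derived levels of the list summed to 435 CPM in XY-WT, 146 CPM in XY-KO and 10.5 CPM in XX-WT. With Sox9, the target of the deletion, left out of the list, the other 4 summed to 346, 133 and 6.46 CPM. Pre-granulosa markers (Foxl2, Fst, Bmp2, Runx1 and Irx3), which mark the supporting cells of the ovary, summed to 268 CPM in XX-WT, 12.6 CPM in XY-WT and 16.2 CPM in XY-KO, with 0 of 5 called by limma in XY-KO over XY-WT and 1 at an unadjusted p under 0.05. Germ cell markers summed to 498, 336 and 278 CPM in XX-WT, XY-WT and XY-KO, surface epithelium markers to 39.9, 26.6 and 25.8 CPM, and endothelial markers to 153, 165 and 159 CPM. The 4 measured fetal Leydig markers summed to 21.3, 612 and 602 CPM, and the 4 measured mesonephric markers to 19.2, 14.1 and 11.4 CPM. The mesonephric sum joins opposite differences: Ret, Pax2 and Pax8 stood at 2.35, 2.17 and 2.09 in XX-WT over XY-WT in the authors' deposited table (limma adjusted p 0.000312, 0.0284 and 0.000856), and Lhx1 at -1.91 (limma adjusted p 6.31e-05). Insl3 and Cdh16, the other members of those last lists, had no value in the tables.

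**Figure D1:**
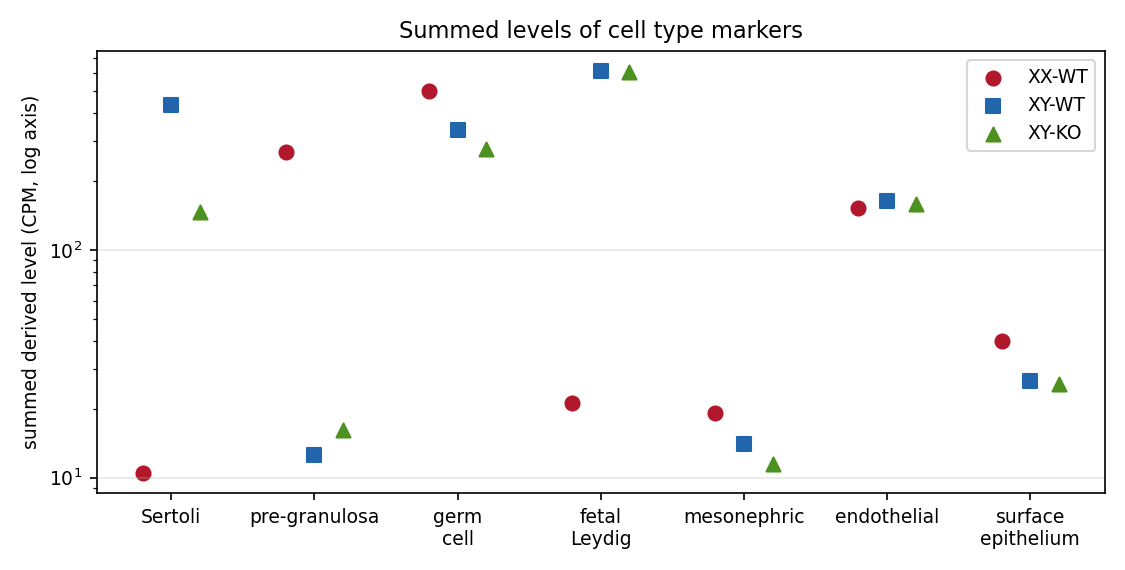
Summed derived level in CPM, on a log axis, of each list of cell type markers in the 3 groups, 1 point a group with no error bar. Sertoli markers lie at 435 CPM in XY-WT, 146 CPM in XY-KO and 10.5 CPM in XX-WT, and pre-granulosa markers at 12.6, 16.2 and 268 CPM in the same order.

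The 10 genes spanned a wide range of abundance. Lgr4 was at percentile 98.2 of mean expression over all genes measured, and Rnf43 was lowest, at percentile 33.0, with Nkd2 next at 43.1. Set per kilobase of the longest annotated transcript, so that genes can be compared, the derived level of Lgr4 in XY-WT was 5.29 on the log2 scale against 1.76 for its relative Lgr5. The ubiquitin ligases differed as well, at 2.25 for Znrf3 and -1.40 for Rnf43 on that scale in XY-WT. All 10 are protein-coding genes (GRCm38, GENCODE M21). Rspo1 lies on chromosome 4 from 124986430 to 125009099 and Wnt4 on the same chromosome from 137277489 to 137299726. Lgr4 lies on chromosome 2 (109917647 to 110014257), Lgr5 on chromosome 10 (115450311 to 115587780) and Lef1 on chromosome 3 (131110471 to 131224356). Chromosome 11 holds Znrf3 (5276324 to 5444847), Rnf43 (87662722 to 87735539) and Axin2 (108920349 to 108950783), while Nkd1 is on chromosome 8 (88521354 to 88594884) and Nkd2 on chromosome 13 (73818534 to 73847631).

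Upstream sequence was at hand for 8 of the 10 genes in RefSeq (build GRCm38.p6), at 12 start sites, for all but Lgr5 and Znrf3. Shown are the 250 bases before the start site of Rspo1 and Axin2, a ligand and a feedback gene that were high in ovary, of Nkd2, which was lower in XY-KO than in XY-WT, and of an internal start site of Lef1. Capitals mark matches to SOX-type motifs (ACAATG or ACAAAG, either strand).
Rspo1 (chr4:124986180-124986429, plus strand): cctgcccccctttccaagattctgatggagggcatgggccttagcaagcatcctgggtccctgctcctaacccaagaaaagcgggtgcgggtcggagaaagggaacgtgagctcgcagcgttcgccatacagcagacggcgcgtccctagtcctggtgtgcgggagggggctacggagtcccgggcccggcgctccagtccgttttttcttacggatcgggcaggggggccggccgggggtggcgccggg
Axin2 (chr11:108920099-108920348, plus strand): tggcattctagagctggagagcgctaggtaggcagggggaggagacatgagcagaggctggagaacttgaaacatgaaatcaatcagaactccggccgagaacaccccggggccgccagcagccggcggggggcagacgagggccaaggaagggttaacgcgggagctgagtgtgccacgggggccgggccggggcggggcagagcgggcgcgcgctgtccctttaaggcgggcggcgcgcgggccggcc
Nkd2 (chr13:73847632-73847881, minus strand): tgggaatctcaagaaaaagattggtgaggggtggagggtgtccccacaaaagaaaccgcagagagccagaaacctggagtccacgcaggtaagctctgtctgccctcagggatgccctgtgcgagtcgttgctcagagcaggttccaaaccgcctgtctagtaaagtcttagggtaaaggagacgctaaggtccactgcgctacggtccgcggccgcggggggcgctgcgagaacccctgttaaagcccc
Lef1 (chr3:131156044-131156293, plus strand): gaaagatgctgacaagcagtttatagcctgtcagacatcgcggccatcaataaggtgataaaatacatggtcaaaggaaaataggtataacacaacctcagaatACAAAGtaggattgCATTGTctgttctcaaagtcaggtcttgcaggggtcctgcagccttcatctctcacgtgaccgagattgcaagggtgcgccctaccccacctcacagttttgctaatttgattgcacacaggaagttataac
The Lef1 window was the only one of the 12 with a SOX-type match and held 2, 1 on each strand. None of the 12 held a TCF/LEF motif (CTTTGAA or CTTTGAT, either strand). Among 32851 start sites of all genes, 25.2% held a SOX-type match and 7.48% a TCF/LEF match in the same 250 bases. Read on the other strand ACAAAG is CTTTGT, which shares CTTTG with the TCF/LEF words. A window without a match says only that these letters are not in it.

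The first comparison sets control ovary over control testis. Of the 10 genes, 8 were higher in XX-WT, 0 were lower, and Znrf3 and Nkd2 did not pass the limma test (9 had an unadjusted p under 0.05). Among all genes measured 10.9% were called higher and 12.4% lower in XX-WT. The median log2 fold change of the 10 was 1.38 beside 0.00 over all genes. XX-WT differs from XY-WT in cell type markers as given above, among them the pre-granulosa markers. Of the 4 measured mesonephric markers, which had lower levels, Ret, Pax2 and Pax8 were higher in XX-WT and Lhx1 was lower. The part of these cell types in the differences was not tested. In whole gonads, fewer cells of a type and less RNA per cell cannot be told apart.

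**Figure D2:**
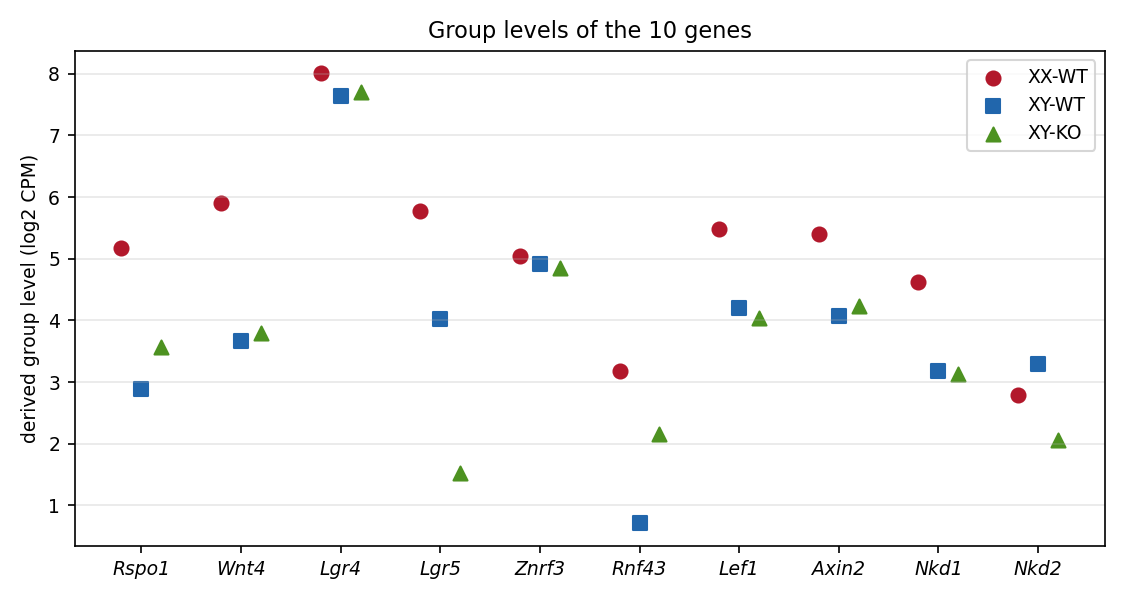
Derived level of each of the 10 genes in log2 CPM in XX-WT (circles), XY-WT (squares) and XY-KO (triangles), 1 point a group with no error bar. Lgr5 and Nkd2 have their lowest level in XY-KO (1.53 and 2.06), while the XY-KO level of Rnf43 (2.16) lies between its control levels.

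The ligands came first in the size of the sex difference together with Rnf43. Rspo1, the R-spondin of the fetal ovary, had derived levels of 36.0 CPM in XX-WT and 7.41 CPM in XY-WT. Its log2 fold change in the authors' deposited table was 2.28 (SE 0.192, limma adjusted p 4.14e-07), 4.86-fold with a 95% interval of 3.66 to 6.46. Wnt4, the WNT ligand whose loss partly masculinises the XX gonad in mice, stood at 59.9 CPM in XX-WT and 12.8 CPM in XY-WT. The authors' deposited table gave Wnt4 a log2 fold change of 2.23 (SE 0.187, limma adjusted p 3.98e-07), 4.70-fold higher (interval 3.57 to 6.19). The intervals of both ligands thus covered nearly the same range of folds.

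The receptors differed from each other. Lgr5, a receptor that in the fetal mouse ovary marks supporting cells near the surface, was derived at 55.0 CPM in XX-WT and 16.2 CPM in XY-WT. In the authors' deposited table its log2 fold change was 1.76 (SE 0.195, limma adjusted p 7.56e-06), a 3.39-fold difference (interval 2.54 to 4.52). Lgr4, the more widely expressed receptor, was derived at 257 CPM in XX-WT and 198 CPM in XY-WT. It was higher in XX-WT by 0.38 in the authors' deposited table (SE 0.108, limma adjusted p 0.0187), 1.30-fold (interval 1.11 to 1.52). The call of Lgr4 ended with a 2-fold limit, with the threshold at 0.01 and with Bonferroni adjustment, which leave 7 of the 10 genes called. The 95% intervals of the 2 receptors did not overlap, but the difference between the genes was itself not tested.

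The ubiquitin ligases also parted. Rnf43, itself a target of the pathway, had a derived level of 9.10 CPM in XX-WT against 1.64 CPM in XY-WT. The authors' deposited table put it at 2.47 (SE 0.297, limma adjusted p 1.70e-05), 5.55-fold higher in XX-WT (interval 3.58 to 8.60). Znrf3, its close relative, was derived at 32.9 and 30.1 CPM. Its log2 fold change of 0.13 in the authors' deposited table did not pass (limma adjusted p 0.515), and its 95% interval ran from -0.15 to 0.41.

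The transcription factor Lef1, an effector and target of β-catenin, was derived at 44.6 CPM in XX-WT and 18.5 CPM in XY-WT. Axin2, a scaffold of the destruction complex and the most used readout of canonical signalling, stood at 42.1 and 16.9 CPM. Nkd1, a Dishevelled-binding inhibitor induced by the signal, stood at 24.6 and 9.10 CPM. These readout genes shared a similar size of difference: the authors' deposited table gave log2 fold changes of 1.27 for Lef1, 1.32 for Axin2 and 1.44 for Nkd1 (limma adjusted p 3.40e-06, 7.41e-06 and 6.42e-05). As folds these were 2.42 (interval 1.99 to 2.93), 2.49 (2.01 to 3.09) and 2.71 (2.02 to 3.63). Nkd2, the paralogue of Nkd1, went the other way in value, with 6.93 CPM in XX-WT and 9.85 CPM in XY-WT. The authors' deposited table listed Nkd2 at -0.51 (SE 0.186, limma adjusted p 0.0614), and it did not pass. Its interval, -0.90 to -0.11, did not overlap that of Nkd1, 1.02 to 1.86.

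Annotated exons of other genes overlapped those of only Lef1 and Axin2, in both cases on the opposite strand. Axin2 shares 209 exonic bases with Gm11670, which the authors' deposited table listed at 0.91 in XX-WT over XY-WT, and Lef1 shares 1208 exonic bases with Gm43352, which has no value here. Whether reads were counted by strand is not given in the sources used here, so reads in those bases cannot be assigned to 1 gene.

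**Figure D3:**
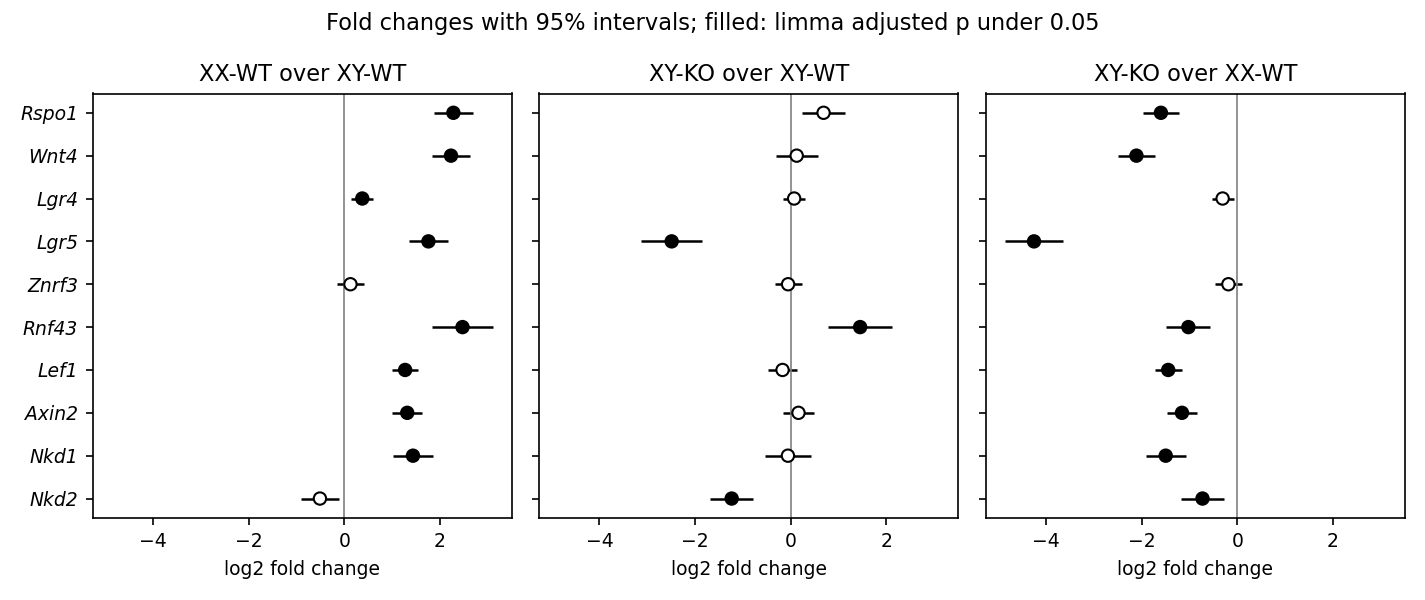
Log2 fold change of each gene (points) with its 95% interval (lines) in the 3 comparisons, with filled points at a limma adjusted p under 0.05. In XY-KO over XY-WT, Rnf43 (1.45) stands above 0 and Lgr5 (-2.49) and Nkd2 (-1.24) below it, and the other 7 points are open.

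The second comparison, XY-KO over XY-WT, asks which of these genes changed in the testis when Sox9 was deleted. Rnf43 rose, Lgr5 and Nkd2 fell, and the other 7 did not pass the test (4 of 10 had an unadjusted p under 0.05). Of all genes measured, 0.699% were called higher and 1.57% lower. The median log2 fold change of the 10 was 0.01, and that of all genes was -0.01. Sertoli markers were lower at the same time, with sums of 146 against 435 CPM, and their part in these changes was not tested.

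Lgr5 had the largest change of the 10. Its derived level was 16.2 CPM in XY-WT and 2.89 CPM in XY-KO. It fell by 2.49 in log2 units in the authors' deposited table (SE 0.30, limma adjusted p 0.000276), 5.62-fold lower with a 95% interval of 3.61 to 8.74. By its p-value it stood 26th of 15300 genes. Lgr4 had derived levels of 198 and 208 CPM in the same groups. The log2 fold change of Lgr4 in the authors' deposited table was 0.07 (limma adjusted p 0.774), and the interval ran from -0.16 to 0.30. Mesonephric markers, which could be carried over from adjoining tissue, summed to 11.4 CPM in XY-KO and 14.1 CPM in XY-WT, and 0 of the 4 measured were called by limma (1 at an unadjusted p under 0.05). That gene, the receptor Ret, was listed at -2.47 in the authors' deposited table (limma adjusted p 0.0795). Ret was higher in XX-WT than in XY-WT, as given above. It was lower in XY-KO than in XX-WT, at -4.82 in the authors' deposited table (limma adjusted p 4.75e-05). Its values thus had the signs of those of Lgr5 in all 3 comparisons, where the last sign follows from the others. Markers of other cell types shared these signs, among them Foxl2, Bmp2, Dazl, Pecam1 and Krt18, and others such as Fst did not. None of these markers passed the test in XY-KO over XY-WT. Pax2 and Pax8 stood at -1.44 and 0.69 in XY-KO over XY-WT (limma adjusted p 0.456 and 0.403) and at -3.62 and -1.40 in XY-KO over XX-WT (limma adjusted p 0.00660 and 0.00578) in the authors' deposited tables. Lhx1, the other measured mesonephric marker, had the opposite sign to Lgr5 in XX-WT over XY-WT, as given above. It also did so in XY-KO over XX-WT, at 1.44 in the authors' deposited table (limma adjusted p 0.00117). In XY-KO over XY-WT Lhx1 stood at -0.46 there (limma adjusted p 0.264). Ret and Pax2 were low in XY-KO, at derived levels of 0.208 and 0.104 CPM. The part of mesonephric tissue in the values of Lgr5 was not tested.

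Rnf43 rose from a derived 1.64 CPM in XY-WT to 4.48 CPM in XY-KO. Its log2 fold change in the authors' deposited table was 1.45 (SE 0.316, limma adjusted p 0.0240), 2.73-fold (interval 1.71 to 4.36). The call ended at an adjusted p under 0.01. Znrf3 was derived at 30.1 CPM in XY-WT and 28.9 CPM in XY-KO, and the authors' deposited table gave -0.06 (limma adjusted p 0.860) with an interval of -0.34 to 0.23.

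Nkd2 fell from a derived 9.85 to 4.18 CPM. The authors' deposited table showed -1.24 (SE 0.209, limma adjusted p 0.00409), 2.35-fold lower (interval 1.73 to 3.20), and by its p-value it stood 101st of all genes. Nkd1 was derived at 9.10 CPM in XY-WT and 8.73 CPM in XY-KO. For Nkd1 the authors' deposited table gave -0.06 (limma adjusted p 0.912), with an interval of -0.53 to 0.42.

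The ligands and the readout genes did not pass. Rspo1 was derived at 7.41 CPM in XY-WT and 11.9 CPM in XY-KO, and the authors' deposited table gave 0.69 (SE 0.209, limma adjusted p 0.103), with an interval of 0.24 to 1.13. The call depended on the setting. With the trend of the fold change with transcript GC content and length removed, the value was 1.05 (adjusted p 0.0156), and with the adjustment made over all 3 comparisons together the adjusted p was 0.0381. That adjustment is looser here: it took calls over all genes from 107 higher and 240 lower to 375 and 547. Rspo1 did not pass among genes at or above median expression (adjusted p 0.0974), with centring (adjusted p 0.0977) or with the stricter limits. Wnt4 was derived at 12.8 and 13.9 CPM, with 0.12 in the authors' deposited table (limma adjusted p 0.792) and an interval of -0.32 to 0.57. Lef1 stood at 18.5 and 16.4 CPM, with -0.17 in the authors' deposited table (limma adjusted p 0.553; interval -0.47 to 0.13). Axin2 stood at 16.9 and 18.9 CPM, with 0.16 in the authors' deposited table (limma adjusted p 0.613; interval -0.17 to 0.49). For Rspo1, Wnt4, Lef1, Axin2 and Nkd1 the upper ends of these intervals lie below the lower ends in ovary over testis. Those lower ends were 1.87, 1.83, 0.995, 1.01 and 1.02. Both comparisons share the XY-WT samples, and the difference between them was not tested.

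The third comparison, XY-KO over XX-WT, sets the testis with Sox9 deleted in Sertoli cells beside the ovary. Of the 10 genes 8 were lower in XY-KO and 0 were higher (9 had an unadjusted p under 0.05); over all genes measured 9.11% were called lower and 9.16% higher. The median was -1.30, beside 0.00 over all genes. The comparison shares its XY-KO samples with the second and its XX-WT samples with the first, so the 3 sets of values are not independent.

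Lgr5 was 19.0-fold lower in XY-KO than in XX-WT (interval 12.5 to 29.0), from -4.25 in the authors' deposited table (SE 0.287, limma adjusted p 6.60e-08). Wnt4 was 4.31-fold lower (interval 3.29 to 5.64) and Rspo1 3.02-fold lower (interval 2.34 to 3.90), at -2.11 and -1.60 in the authors' deposited table (limma adjusted p 8.08e-07 and 8.21e-06). Nkd1, Lef1 and Axin2 stood at -1.50, -1.44 and -1.16 in the authors' deposited table (limma adjusted p 5.39e-05, 1.40e-06 and 3.07e-05). Rnf43 was still lower than in ovary, at -1.02 in the authors' deposited table (SE 0.216, limma adjusted p 0.00315). Nkd2 was lower by 0.73 log2 units, listed as -0.73 in the authors' deposited table (SE 0.214, limma adjusted p 0.0264). Lgr4 at -0.31 and Znrf3 at -0.19 in the authors' deposited table did not pass (limma adjusted p 0.0654 and 0.384).

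The order of the levels differed among the 10 genes. Rspo1, Wnt4, Lef1, Axin2 and Nkd1 were highest in XX-WT, and XY-WT and XY-KO did not differ past the test. Lgr5 was ordered XX-WT, XY-WT, XY-KO, each step past the test, and Rnf43 was ordered XX-WT, XY-KO, XY-WT, again with each step past the test. Nkd2 was lowest in XY-KO, while its control groups did not differ past the test. In Lgr4 XX-WT exceeded XY-WT alone past the test, and Znrf3 showed no pair past it. Genes called lower in XY-KO than in both controls, as Lgr5 and Nkd2 were, made up 0.144% of all genes (22 of 15300), and genes called between both controls in the order of Rnf43 made up 0.137% (21). The call of Nkd2 against XX-WT ended with a 2-fold limit, with the threshold at 0.01 and with Bonferroni adjustment.

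The rest of the pathway was read from a list of 83 other WNT genes, of which 65 were measured. Among the 18 with no value were Rspo2, Rspo4 and 11 WNT ligands. In XX-WT over XY-WT 9 of the 65 were higher and 18 lower, with a median of -0.12; over all genes 10.9% were called higher and 12.4% lower. With a 2-fold limit the list had 9 higher and 10 lower, and at an adjusted p under 0.01 it had 8 and 10. Over all 15300 genes those settings gave 876 higher and 960 lower, and 922 and 1205. In XY-KO over XY-WT 0 rose and 1 fell by limma (15 had an unadjusted p under 0.05; median -0.12), beside 0.699% of all genes called higher and 1.57% lower. In XY-KO over XX-WT 10 were higher and 12 lower (median -0.04), beside 9.16% and 9.11% of all genes.

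Secreted inhibitors of the pathway held 7 of the 18 lower genes in ovary: of 10 measured, 7 were lower and 1 was higher in XX-WT, beside 12.4% and 10.9% of all genes. Sostdc1, a WNT and BMP antagonist, was derived at 25.0 CPM in XY-WT, 14.5 CPM in XY-KO and 0.463 CPM in XX-WT. In the authors' deposited table it stood at -5.76 in XX-WT over XY-WT (limma adjusted p 2.30e-07). It was also the gene of the list that fell in XY-KO over XY-WT, at -0.79 in the authors' deposited table (SE 0.179, limma adjusted p 0.0303), a call that ended with the GC and length trend removed. Dkk1, which blocks LRP co-receptors, was derived at 9.84 CPM in XY-WT, 12.1 CPM in XY-KO and 1.18 CPM in XX-WT. The authors' deposited table placed Dkk1 at -3.06 in XX-WT over XY-WT (limma adjusted p 2.31e-05) and at 0.29 in XY-KO over XY-WT (limma adjusted p 0.527). Sfrp4, a secreted Frizzled-related protein, was at -6.87 in XX-WT over XY-WT in the authors' deposited table. Its level in XX-WT was close to the floor, where the size depends on the offset used before logs were taken. Sostdc1 and the inhibitors Frzb and Wif1 were also low in XX-WT, at derived levels of 0.463, 0.294 and 0.833 CPM, so the same limit applies to their sizes. Notum, a secreted enzyme that inactivates WNT proteins and is itself a target of the signal, was the secreted inhibitor higher in XX-WT, at 2.86 in the authors' deposited table (SE 0.546, limma adjusted p 0.00120). Of the 3 measured membrane inhibitors 2 were higher and 0 lower by limma in XX-WT (2 at an unadjusted p under 0.05): Trabd2b, a protease that cleaves WNT proteins, and Apcdd1, which binds WNT and LRP5, stood at 1.48 and 1.30 in the authors' deposited table (limma adjusted p 0.000508 and 0.0350).

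Of the 9 measured genes listed as nuclear or as targets, 2 were higher and 1 was lower in XX-WT, and of the 2 genes of WNT release 1 was higher. Beside these counts, 10.9% of all genes were called higher and 12.4% lower. Tnfrsf19, a target of canonical signalling, was derived at 87.5 CPM in XX-WT, 6.61 CPM in XY-WT and 5.71 CPM in XY-KO, with 3.73 in XX-WT over XY-WT in the authors' deposited table (limma adjusted p 5.38e-10). The transcription factor Sp5 stood at 3.51 and Porcn, the enzyme that attaches the lipid WNT proteins need for secretion, at 3.28 in the authors' deposited table (limma adjusted p 0.00212 and 2.59e-06). Wls, which carries WNT proteins to the cell surface, did not pass, at -0.12 in the authors' deposited table (limma adjusted p 0.517). In XY-KO over XY-WT the authors' deposited table gave Tnfrsf19 -0.21, Sp5 0.45, Porcn 0.30 and Notum 0.03, none past the test. Sp5 and Notum were low in both testis groups, and their 95% intervals there, -1.45 to 2.34 and -1.44 to 1.51, were wide.

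Among the 8 measured ligands outside the 10 genes, 2 were higher and 2 lower in XX-WT, beside 10.9% and 12.4% of all genes. Wnt9a and Wnt2b were higher, at 2.65 and 1.68 in the authors' deposited table (limma adjusted p 8.36e-05 and 7.33e-06), and Wnt3 was lower, at -2.19 in the authors' deposited table (limma adjusted p 0.0386). Wnt5a, a ligand that mostly acts outside the β-catenin branch, was also lower in ovary, at -1.52 in the authors' deposited table (limma adjusted p 7.96e-06). It was derived at 82.0 CPM in XX-WT, 234 CPM in XY-WT and 257 CPM in XY-KO. Rspo3, another R-spondin, was derived at 4.74, 2.69 and 2.22 CPM in the same order; it did not pass in XX-WT over XY-WT (0.82 in the authors' deposited table, limma adjusted p 0.0578) or in XY-KO over XY-WT (-0.28, limma adjusted p 0.703), and it was lower in XY-KO than in XX-WT (-1.10, limma adjusted p 0.0178). Lgr6, the third R-spondin receptor, was higher in XX-WT by 1.62 in the authors' deposited table (limma adjusted p 0.00785) at low levels of 1.67 CPM in XX-WT and 0.543 CPM in XY-WT. In XY-KO over XY-WT Lgr6 stood at 0.29 in the authors' deposited table (limma adjusted p 0.784). Fzd9, a Frizzled receptor, was among the largest falls from testis to ovary, at -2.89 in the authors' deposited table (limma adjusted p 0.0182), also near the floor in XX-WT.

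Ctnnb1, which encodes β-catenin, was derived at 414 CPM in XX-WT, 412 CPM in XY-WT and 422 CPM in XY-KO. Its log2 fold change was 0.01 in XX-WT over XY-WT and 0.04 in XY-KO over XY-WT in the authors' deposited table (limma adjusted p 0.978 and 0.927), with intervals of -0.32 to 0.34 and -0.30 to 0.37. RNA level does not report the stability of the protein, through which the signal acts. Tcf7, a partner of β-catenin related to Lef1, was derived at 23.2 CPM in XX-WT, 18.5 CPM in XY-WT and 11.9 CPM in XY-KO. It stood at -0.63 in XY-KO over XY-WT in the authors' deposited table and did not pass (limma adjusted p 0.0683), and at -0.96 in XY-KO over XX-WT it did (limma adjusted p 0.000604).

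The same list in XY-KO over XX-WT had its largest called rises in the secreted inhibitors Sfrp4 (6.15), Sostdc1 (4.97), Dkk1 (3.35) and Wif1 (1.66) in the authors' deposited table. The XX-WT levels of Sfrp4, Sostdc1 and Wif1 were low, as given above. The ligand Wnt3 (1.93) and the inhibitor Frzb (1.71) had higher values than Wif1 in the authors' deposited table and did not pass (limma adjusted p 0.0763 and 0.0694). Its largest called falls there in the authors' deposited table were Tnfrsf19 (-3.94), the ligand Wnt9a (-3.50), Sp5 (-3.06) and Porcn (-2.98). Wif1 binds WNT ligands outside the cell, and in XY-KO over XY-WT it stood at 0.55 in the authors' deposited table (limma adjusted p 0.312).

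**Figure D4:**
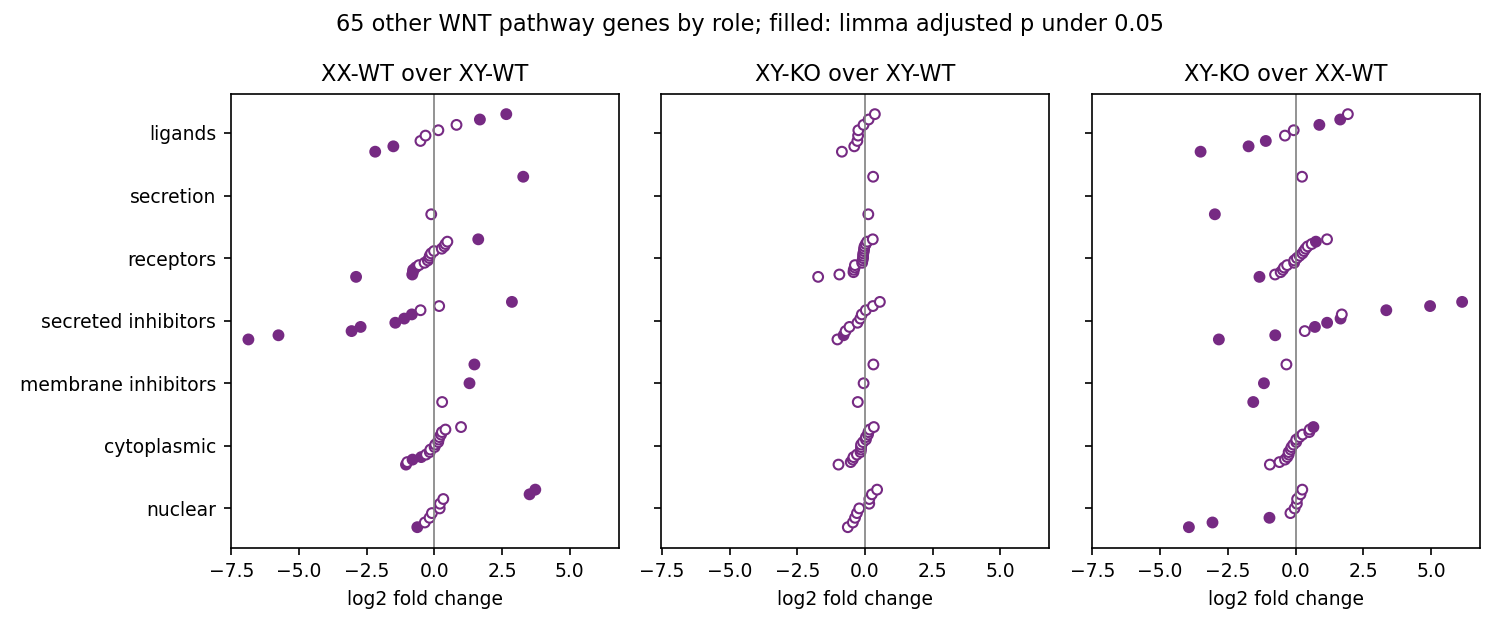
Log2 fold change of the 65 other WNT pathway genes in the 3 comparisons, 1 point a gene, grouped by role, with filled points at a limma adjusted p under 0.05. Secreted inhibitors lie mostly below 0 in XX-WT over XY-WT (7 lower and 1 higher of 10), and in XY-KO over XY-WT the single filled point is Sostdc1 at -0.79.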

How the data were processed

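RNA from 9 samples was measured. Per the labels' protocols, libraries were made by SPIA amplification of non-ribosomal RNA and sequenced as pairs of 150 nt. Per the submitters' processing notes, the genome was GRCm38 and the tools were limma 3.24.0, HTSeq 0.6.1p1, TopHat2 2.0.8 and Trimmomatic 0.30; the gene filter and any sample weights are not given in the sources used here. Per the file headers, the deposited values are the authors' log2 fold change and mean log2 expression, the moderated t score and log-odds score, and the p-value with its adjusted p-value.

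Recomputed adjusted p-values differed from the deposited ones by at most 0.000769 in relative terms, and the 3 fold changes of a gene added up within 0.005. The degrees of freedom that lead from t to p were 15.27, and they set the intervals. The SE was the fold change over t. Group levels assume equal weight for the groups. IDs were named through GENCODE M21 (15192 of 15300 matched). The transcript trend was a robust regression of degree 3 on length and GC content over the more abundant part of the genes (mean expression of 3.19 or more, the median), tested on simulated data. Alternatives were other thresholds, adjustments, filters and centring. Named genes were all 10 genes, the 4 largest called rises and falls of the pathway list per comparison, and 8 pathway genes fixed by name. These 8 were Ctnnb1, Rspo2, Rspo3, Lgr6, Wnt5a, Tcf7, Dkk1 and Notum. Ret, Pax2, Pax8, Lhx1, Wls, Trabd2b, Apcdd1, Wnt2b, Wnt3, Frzb, Dazl, Pecam1 and Krt18 were named after their values were seen. The genes and lists were chosen with earlier results of these data known. The work was done in Python 3.11.15 with scipy 1.17.1, pandas 2.3.3, numpy 2.4.6, matplotlib 3.10.9 and statsmodels 0.14.6.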

Additional observations from a re-analysis of the deposited data

How the results depend on the processing

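Of 204 recomputed values of the 10 genes, 190 kept their direction and their side of the threshold over 7 alternatives. The other thresholds, adjustments and the filter keep the deposited fold change. Direction could thus change only with centring or with the trend removed. A stricter limit could end a call but not add 1, so the 190 include values that could not change. The value that changed sign was Nkd1 in XY-KO over XY-WT, from -0.059 to 0.069 with the GC and length trend removed, where it passed in neither case. With that trend removed Lgr4 in XY-KO over XX-WT passed (adjusted p 0.0499). Of the 10 genes, only Lgr5 was called in XY-KO over XY-WT (1 in place of 3) among genes at or above median expression, where Rnf43 and Nkd2 could not be tested, and with Bonferroni adjustment. For the 65 pathway genes, calls in XX-WT over XY-WT went from 27 to 9 among genes at or above median expression and to 7 with Bonferroni adjustment, and in XY-KO over XX-WT from 22 to 7 under each. In XY-KO over XY-WT the limma count of 1 (15 at an unadjusted p under 0.05) went to 0 with a 2-fold limit, with the threshold at 0.01, at or above median expression, with Bonferroni adjustment and with the trend removed, and to 3 with adjustment over the 3 comparisons together; fewer genes tested or a stricter limit is part of 4 of these settings, and for the trend the cause was not tested. Over all genes, calls in XX-WT over XY-WT went from 1661 higher and 1899 lower to 797 and 1082 at or above median expression. With Bonferroni adjustment they went to 234 and 393. In XY-KO over XX-WT they went from 1402 and 1394 to 753 and 644, and to 273 and 208, in the same order. In XY-KO over XY-WT they went from 107 and 240 to 61 and 129 with a 2-fold limit and to 37 and 102 at 0.01. They went there to 71 and 135 at or above median expression, 5 and 50 with Bonferroni adjustment and 116 and 142 with the trend removed. Adjustment over the 3 comparisons together gave 375 and 547. No paired analysis was possible because the tables hold no values of single samples, and for the same reason no replicate could be left out. Depth is unknown, so no counting interval was given.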

Other observations

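Genes with a pattern like that of a member were ranked by the Euclidean distance between their pairs of log2 fold changes over XY-WT (XX-WT and XY-KO), in the authors' deposited tables, among genes with a standard name and a mean log2 expression within 1 of the member. The distance rests on 3 groups and on comparisons that share the XY-WT samples, so it is a description. Nearest to Rspo1 were Zbtb7c (distance 0.238), Thsd7b (0.242) and Itpr2 (0.247), among 4346 genes. Of these, Zbtb7c, a zinc finger gene, stood at 2.17 in XX-WT and 0.90 in XY-KO in the authors' deposited tables and passed in both (limma adjusted p 2.16e-07 and 0.0168).

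Nearest to Wnt4 were the potassium channel gene Kcnd2 (0.194), the cell cycle inhibitor Cdkn1b (0.325) and the synaptonemal complex gene Sycp1 (0.333), the last a gene of meiotic germ cells. Nearest to Lef1 were the guidance signal Sema3a (0.0225), Rbm44 (0.0388) and Scube3 (0.0988), and 71 genes lay within 0.5.

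Lgr5 had no gene within 0.5 among the 4331 compared. The distance is in log2 units and not scaled, so a gene with large changes can have few neighbours through their size alone. The nearest was the transcription factor gene Bhlhe41 at a distance of 1.60, with 2.08 in XX-WT and -0.92 in XY-KO in the authors' deposited tables (limma adjusted p 2.33e-06 and 0.0828). Alpl, the tissue-nonspecific alkaline phosphatase gene, followed at 1.84 and Bmyc at 1.85. Without the limit on expression, an alternative chosen after seeing the data, the nearest of 13131 genes was Ret at 0.59, at a lower mean log2 expression of 0.16, and 0 lay within 0.5. Within 0.5 of Rspo1 and Wnt4 there were 9 and 11 genes.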
